A study of Mus musculus with 2 samples.

Results

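Clusters of distal DNase I hypersensitive sites (DHSs) were described in the left cerebral cortex of newborn mice. A distal shared DHS was a union of overlapping calls that held a call of each of 2 libraries and had its centre more than 1 kb from any transcription start site (TSS) of a protein-coding gene. Neighbouring distal shared DHSs on the autosomes were chained where the gap between them was 12500 bp or less, and chains of 3 or more DHSs were kept. This gave 439 clusters with 1702 DHSs, which is 14.9% of the 11451 distal shared DHSs on the autosomes (exact 95% binomial interval 14.2% to 15.5%, counting error only). A further 2500 distal shared DHSs lay in 1250 pairs, and 7249 had no neighbour within this linking distance and are called single. The clusters were chosen by the positions of these same calls, so their number and spacing are given as a description, and the values that follow carry no test. The number depends on requiring both libraries: the same chaining gave 1670 clusters on the calls of replicate 2 alone (29.9% of its distal DHSs) and 2675 on those of replicate 1 alone (72.4%).

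The libraries came from whole left cortex of female B6CASTF1/J mice, an F1 hybrid strain, at postnatal day 4, with no treatment. There was 1 group of 2 libraries, named replicate 1 and replicate 2 after the labels' biological replicate number. The labels give them different animal numbers and 1 strain-level donor entry. Whole tissue mixes neurons, glia and vessel cells, so a DHS open in few cells and one weakly open in many cannot be told apart. Replicate 1 held 59355 calls and replicate 2 held 46566. Of the promoters of fixed marker genes, a shared DHS lay at 3 of 6 for cortical neurons, 1 of 4 for interneurons, 1 of 3 for astrocytes and 3 of 4 for the oligodendrocyte lineage. It lay at 1 of 3 promoters for meninges and choroid plexus and at 0 of 3 each for microglia, endothelium and subcortex with hindbrain.

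DNase I cuts DNA where nucleosomes have been displaced, usually by bound transcription factors, and distal DHSs often mark enhancers, insulators or unannotated promoters. Runs of closely spaced distal DHSs are known at genes of cell identity, where they are called enhancer clusters, and a linking distance like the present one is common in work on super-enhancers. No histone mark or RNA was measured here, so a cluster is a run of accessible sites and nothing more. A cluster was called by the protein-coding gene whose TSS was nearest to the largest number of its members. Ties went to the gene with the smaller median distance. Members were numbered along the chromosome (Mef2c.1 to Mef2c.11). The nearest gene need not be the gene a site acts on. Levels are the authors' signal value, a tag density at the strongest call in the DHS, whose scaling is not stated. Values of the libraries are therefore given side by side, and their ratio is used only to set clusters beside each other.

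Sequences from GRCm38 (mm10) are shown for members on which the account turns, on the plus strand and 5′ to 3′. Capitals mark bases inside a deposited footprint, a short stretch protected from cutting, of both libraries. For DHSs over 300 bp, the central 200 bp are printed. Mef2c.1, Pou3f3.4 and Dand5.1 are among the strongest members of their clusters, and their nearest protein-coding genes are regulators of cortical cells. For Mef2c.1 this gene is 139514 bp away. Polg.7 and Ythdf1.3, chosen after their values were seen, lie beside miRNA genes. Gm31371.1 holds an exact match to the binding consensus of CTCF, the insulator protein, and Cdh5.4 comes from the largest cluster of low values. Sequences that depart from this consensus were not searched, so the other members shown are not shown to lack a CTCF site.
Mef2c.1 (chr13:83715061-83715320): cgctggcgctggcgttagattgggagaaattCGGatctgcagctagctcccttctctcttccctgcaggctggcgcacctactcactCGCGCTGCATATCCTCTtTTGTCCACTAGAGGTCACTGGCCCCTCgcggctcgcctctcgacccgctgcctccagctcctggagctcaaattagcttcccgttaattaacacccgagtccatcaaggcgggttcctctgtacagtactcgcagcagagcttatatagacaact
Pou3f3.4 (chr1:42686774-42686973): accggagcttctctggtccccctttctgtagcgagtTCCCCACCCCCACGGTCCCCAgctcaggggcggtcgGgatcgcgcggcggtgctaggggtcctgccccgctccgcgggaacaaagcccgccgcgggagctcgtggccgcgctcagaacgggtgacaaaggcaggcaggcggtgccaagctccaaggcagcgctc
Dand5.1 (chr8:84810941-84811160): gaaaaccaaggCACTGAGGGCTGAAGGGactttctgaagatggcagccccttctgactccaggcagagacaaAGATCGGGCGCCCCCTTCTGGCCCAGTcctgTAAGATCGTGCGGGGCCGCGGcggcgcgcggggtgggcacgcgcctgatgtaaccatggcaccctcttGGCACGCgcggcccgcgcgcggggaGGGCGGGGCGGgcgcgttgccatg
Polg.7 (chr7:79504781-79505020): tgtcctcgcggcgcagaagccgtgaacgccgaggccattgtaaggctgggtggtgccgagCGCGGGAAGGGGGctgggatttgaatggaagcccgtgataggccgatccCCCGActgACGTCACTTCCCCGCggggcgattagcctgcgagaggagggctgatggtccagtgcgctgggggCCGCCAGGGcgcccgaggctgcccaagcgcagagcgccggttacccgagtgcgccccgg
Ythdf1.3 (chr2:180892901-180893200): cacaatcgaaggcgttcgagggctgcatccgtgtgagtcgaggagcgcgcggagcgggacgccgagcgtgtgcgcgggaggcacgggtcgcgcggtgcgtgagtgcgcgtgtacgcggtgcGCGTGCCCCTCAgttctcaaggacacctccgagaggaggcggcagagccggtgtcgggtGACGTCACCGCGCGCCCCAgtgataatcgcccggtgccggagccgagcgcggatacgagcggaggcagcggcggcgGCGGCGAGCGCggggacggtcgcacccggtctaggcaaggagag
Gm31371.1 (chr8:20122141-20122320): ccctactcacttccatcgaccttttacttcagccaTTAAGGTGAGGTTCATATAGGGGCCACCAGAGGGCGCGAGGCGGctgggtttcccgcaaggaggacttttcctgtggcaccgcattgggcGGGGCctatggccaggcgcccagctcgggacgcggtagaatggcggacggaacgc
Cdh5.4 (chr8:104065401-104065600): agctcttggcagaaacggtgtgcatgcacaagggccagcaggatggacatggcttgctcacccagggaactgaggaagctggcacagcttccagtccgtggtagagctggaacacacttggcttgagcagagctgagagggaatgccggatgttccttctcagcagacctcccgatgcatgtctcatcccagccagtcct

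The footprint runs of these sequences differ between clusters. Dand5.1 has 5 runs with 83 of 220 bases protected in both libraries, and Mef2c.1 has 3 runs with 47 of 260 bases. Gm31371.1 has 2 runs, and all 12 bases of its CTCF consensus match, at bases 59 to 70, lie in the first of them. The cyclic AMP response element (CRE) letters TGACGTCA stand at bases 116 to 123 of Polg.7 and at bases 180 to 187 of Ythdf1.3, with 6 and 7 of 8 bases inside a common footprint. Among all distal shared DHSs, searched on both strands of the central 150 bp, these letters were found in 13 of 1702 clustered DHSs (0.764%) and in 38 of 7249 single ones (0.524%). Cdh5.4 has no printed base protected in both libraries: 22 of its printed bases lie in a footprint of replicate 1 and 0 in one of replicate 2. Over its whole 400 bp, replicate 1 had 3 footprints and replicate 2 had 1.

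Most clusters were small. There were 283 clusters of 3 DHSs and 89 of 4, while 41 clusters held 6 or more and 10 held 10 or more, up to 22. The span of a cluster had a median of 8105 bp (quartiles 4050 and 13522 bp, range 975 to 58340 bp), and all spans together covered 4.29 Mb. DHSs took a median of 13.99% of the span. The median gap was 1140 bp, and of the 1263 gaps inside clusters 248 were of 200 bp or less, 26 of them with no base between the neighbours. Whether such neighbours are parts of 1 accessible region was not tested. At the edge of the linking distance, 87 neighbouring pairs had a gap up to 1 kb below it, and their DHSs had medians of 1.19 (replicate 1) and 2.17 (replicate 2), while 78 pairs had a gap up to 1 kb above it, with medians of 1.10 and 2.06.

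**Figure D1:**
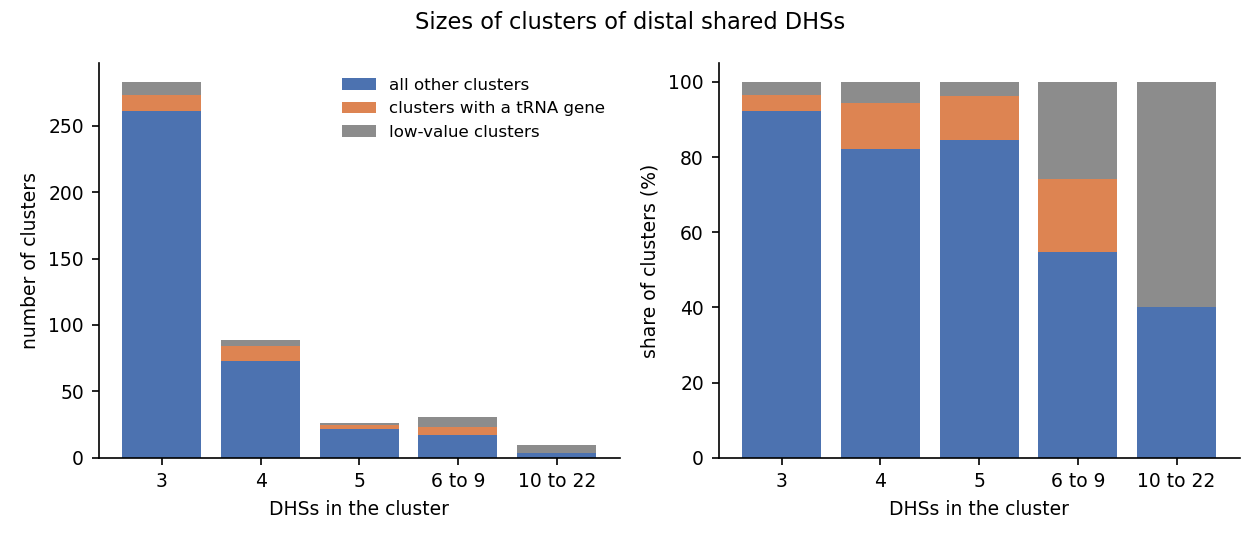
Number of clusters (left) and share of clusters in percent (right) by the number of DHSs in the cluster, divided into clusters with a tRNA gene, low-value clusters (median signal value under 0.3 in replicate 1) and all others. Clusters of 3 are 261 of 283 in the group of all others, while 6 of the 10 clusters with 10 to 22 DHSs are low-value clusters.

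The clusters were divided into 3 kinds after the values had been seen. At least 1 member lay over a RefSeq tRNA gene in 32 clusters, which held 136 DHSs. A further 30 clusters with 202 DHSs had a median signal value under 0.3 in replicate 1 and are called low-value clusters. The remaining 377 clusters held 1364 DHSs. The low-value limit cuts through a range: the highest cluster median under it was 0.299 and the lowest above it 0.322, and 9 clusters lay between 0.3 and 0.4. The kinds were spread unevenly over sizes. Of the 10 largest clusters, 6 were low-value (Cdh5, Vstm2l, B4galt5, Trappc9, Sik1 and Mrpl21), and 4 were not (Emc10, Sfi1, Mef2c and Pou3f3).

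The signal value did not set clustered DHSs apart as a class. In replicate 1 the median was 0.955 in clustered DHSs (quartiles 0.640 and 1.42) and 0.948 in single ones (0.724 and 1.29). In replicate 2 it was 1.78 (quartiles 1.00 and 2.98) against 1.76 (1.21 and 2.62). The quartiles show a wider spread in clustered DHSs, at both ends. Signal values under 0.3 in replicate 1 occurred in 186 of 1702 clustered DHSs (10.9%), in 19 of 2500 paired ones and in 21 of 7249 single ones (0.290%). Values of 2 or more occurred in 164 clustered DHSs (9.64%) and 387 single ones (5.34%). The ratio of the medians, clustered to single, was 1.01 in both libraries, and its side of 1 turned with the choices made: it was 0.894 and 0.834 with a linking distance of 5 kb, 1.11 and 1.16 with 25 kb, and 1.09 and 1.13 without the low-value clusters.

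Within a cluster, members differed in strength by a median of 1.97 times in replicate 1 (highest over lowest, quartiles 1.49 and 2.79) and 2.60 times in replicate 2 (1.79 and 3.89). The order was often shared. The strongest member was the same DHS in both libraries in 321 of 439 clusters (73.1%, interval 68.7% to 77.2%). The mean over clusters of 1 divided by the number of members was 28.9%. The widest range in replicate 1, 20.2 times, was in Slc26a9, a low-value cluster of 5 in the introns of an anion transporter gene, with members from 0.0841 to 1.70. The widest in replicate 2, 55.2 times, was in Gm10778, with members from 0.126 to 6.96. Both have 1 or few strong DHSs among weak ones.

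**Figure D2:**
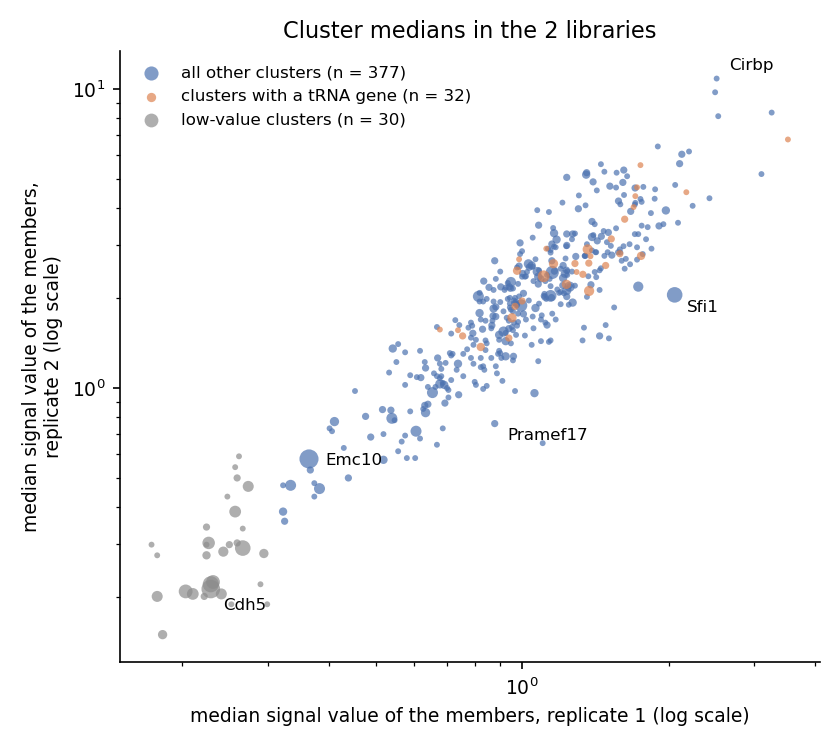
Median signal value of the members of each of the 439 clusters in replicate 1 (x axis) and replicate 2 (y axis), both on log scales, with larger points for clusters of more DHSs. Low-value clusters such as Cdh5 (0.229 and 0.213) lie at the lower left with no gap to the others, clusters with a tRNA gene lie among the rest, and Sfi1 and Pramef17 lie below the main cloud, with ratios of 0.941 and 0.831.

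Signal values of the 2 libraries rose together across clustered DHSs. Across the 1702 clustered DHSs the log2 signal values had a Pearson correlation of 0.93, and across the 7249 single ones 0.842. DHSs of 1 cluster and of 1 library are not independent points, so these are descriptions. Clustered DHSs also have the wider spread of values, for which these correlations were not adjusted. Dividing each DHS's level in replicate 2 by its level in replicate 1 gave a median of 1.84 in clustered and 1.83 in single DHSs. It was 1.96 in clusters with a tRNA gene, 1.91 in the remaining clusters and 1.15 in low-value clusters. The ratio moved with the level in both classes: among DHSs under 0.3 in replicate 1 it was 1.14 in clustered and 1.34 in single DHSs, and among those of 2 or more it was 2.27 and 2.12.

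Clustered DHSs were wider and lay nearer to genes. Their median width was 266.5 bp, against 200 bp in single DHSs, and 220 bp in pairs. The distance to the nearest protein-coding TSS had a median of 15264 bp, against 26347 bp in single DHSs. A shared promoter DHS lay within the linking distance of 176 clusters (40.1%) and of 1479 single DHSs (20.4%). A cluster offers more length to be near a promoter than a single DHS does. By protein-coding genes alone, introns held 30.6% of clustered and 38.6% of single DHSs, exons 10.3% and 6.77%, and intergenic sequence 59.0% and 54.7%. Intergenic sequence thus includes non-coding genes that lie outside protein-coding ones. The GC content of the central 150 bp had a median of 57.3%, against 54.7%, and the observed to expected ratio of CpG dinucleotides was 0.481, against 0.353. The GC difference of 2.67 percentage points turned to -3.33 on the calls of replicate 1 alone.

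Starts of non-coding transcripts lay in some of the clusters. A TSS of a non-coding or other transcript lay within 1 kb of the centre of 199 clustered DHSs (11.7%), in 114 clusters, and of 582 single ones (8.03%). RefSeq lncRNA genes overlapped 154 clusters and miRNA genes 13. Enhancers annotated in RefSeq overlapped 19 clustered DHSs (1.12%) and 64 single ones (0.883%). All members shared 1 nearest gene in 356 clusters. Among chromosomes, the share of distal shared DHSs that lay in clusters ran from 9.07% on chromosome 12 to 19.6% on chromosome 11, which held 45 clusters.

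Clustered DHSs less often had a footprint in both libraries than single ones. In such a DHS each library has a footprint, but the footprints of the 2 libraries need not overlap. They were 1393 of 1702 clustered DHSs (81.8%, interval 79.9% to 83.7%), 92.0% of paired and 96.0% of single ones (95.6% to 96.5%). The intervals treat DHSs as independent, which members of 1 cluster are not, so they are no test of the difference. The share was 41.1% in low-value clusters, 91.2% in clusters with a tRNA gene and 87.0% in the remaining clusters. On the calls of replicate 1 alone the clustered share was 10.2%, and on those of replicate 2 alone 48.5%. The clustered share was the lower one in each of 4 width classes, at 89.0% against 97.01% up to 220 bp and 75.6% against 93.4% over 500 bp. It was close to the single share among strong DHSs: of those with 1 to 2 in replicate 1, 97.3% of clustered and 99.4% of single DHSs had a footprint in both libraries.

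The DNA between members was also cut above background in places. Of the bases in gaps, 12.1% in replicate 1 and 11.1% in replicate 2 had a false discovery rate under 0.05 in the authors' cut-rate files. In the 1140 bp on each side of single DHSs, a length equal to the median gap in clusters, these shares were 8.99% and 10.6%. These flanks all lie close to a DHS, while gaps in clusters were taken whole. In the gaps of pairs, also taken whole, the shares were 6.37% and 6.69%. In low-value clusters they were 42.1% and 24.5%, and in the remaining clusters without a tRNA gene 10.6% and 10.4%. Bases between the members of low-value clusters were thus listed more often, most of all in replicate 1.

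CTCF binds a long consensus and marks insulators and the anchors of chromatin loops. Its consensus, searched on both strands of the central 150 bp, matched 145 of 1702 clustered DHSs (8.52%), 17.6% of paired and 1463 of 7249 single ones (20.2%), a ratio of clustered to single of 0.422. No mismatch was allowed, so these are shares of exact matches, and sites that depart from the consensus are not counted. The ratio was below 1 in all 19 settings computed, at 0.0702 on the calls of replicate 1 alone and 0.0997 in clusters of 5 or more. The share was low in wide DHSs of both classes. Among DHSs of up to 220 bp, 18.5% of clustered and 28.7% of single ones had a match, and in the next class, up to 300 bp, 6.40% and 7.07%. Above that and up to 500 bp the shares were 0.450% and 0.726%, and over 500 bp 0.741% and 0.237%, on 2 and 1 matches. The central 150 bp leave most of a wide DHS unsearched. With the whole DHS searched, these 2 classes had 3.38% and 4.88%, and then 1.11% and 2.61%. The ratio over all widths was then 0.446. Single DHSs weighted to the widths of the clustered ones gave a ratio of 0.681, an alternative added after the values were seen. Up to 220 bp wide were 37.8% of clustered and 66.5% of single DHSs.

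**Figure D3:**
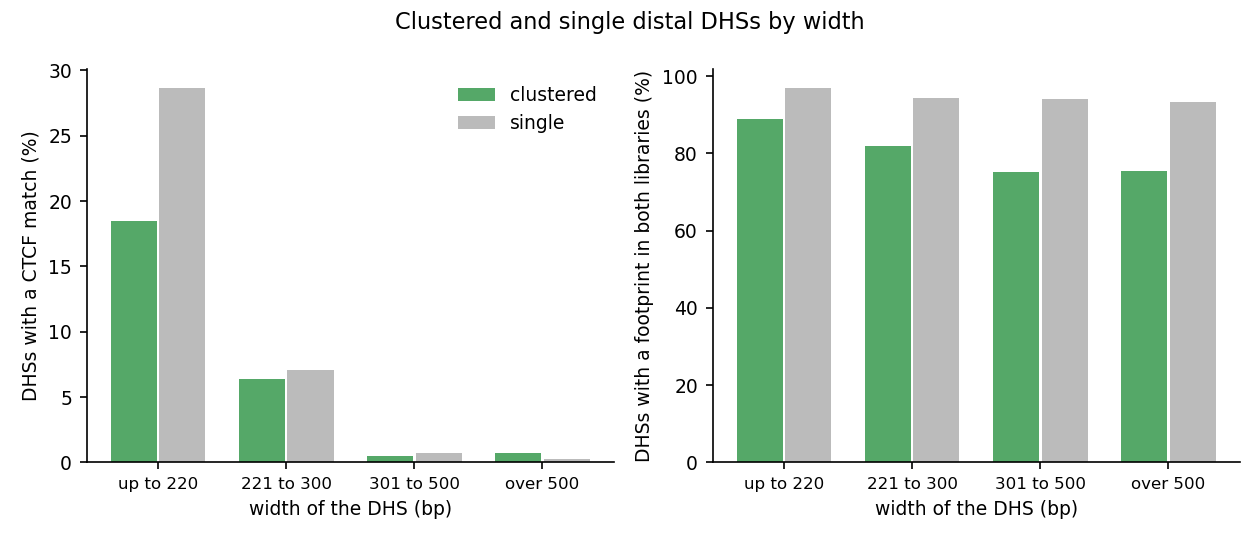
Share of DHSs with a CTCF consensus match in the central 150 bp (left) and with a footprint in both libraries (right), in percent, for clustered and single distal DHSs in 4 width classes. In this central window CTCF matches differ between the classes up to 220 bp (18.5% and 28.7%) and are rare in both above 300 bp. DHSs with a footprint in both libraries are less frequent among clustered DHSs at each width.

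The CTCF difference was also seen at each distance from genes, at 5.18% against 14.8% from 1 to 5 kb of a TSS and 11.04% against 21.9% from 20 to 100 kb. In clusters outside the tRNA and low-value kinds, the share for the central 150 bp was 13.7% in clusters of 3 and 7.88% in clusters of 4. It was 2.77% in clusters of 5 or more. The median widths of their DHSs were 240, 267.5 and 324 bp. A CTCF match was present in 126 clusters. Where neighbouring members both had a match, 10 pairs were on the same strand, 8 were divergent and 1 was convergent.

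Other consensus sequences were rarer. The E-box of neurogenic factors of the NEUROD family, CAGATGG, matched 4.70% of clustered and 7.16% of single DHSs. The palindrome of nuclear factor I matched 1.47% and 2.54%, and the AP-1 site, TGAGTCA or TGACTCA, 1.53% and 2.19%. The site of early growth response factors, GCGTGGGCG, matched 8 clustered DHSs (0.470%) and 14 single ones (0.193%), a ratio of 2.43 that rests on few matches. A match is a description of letters and not evidence of binding.

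Transfer RNA genes are short genes read by RNA polymerase III, which is recruited through 2 promoter elements inside the gene, the A box and the B box. In vertebrates they lie in groups, and many are silent in a given tissue. Of 386 autosomal tRNA genes in RefSeq, 152 overlapped a shared DHS, 124 a distal shared DHS and 86 a clustered one. Distal shared DHSs over a tRNA gene numbered 118 (1.03%), of which 81 lay in clusters (68.6%, interval 59.5% to 76.9%), 20 were single and 17 were in pairs. The background share in clusters was 14.9%. The part that the spacing of the genes themselves has in this share was not tested. The 86 genes covered 20 amino acid types, led by leucine and proline with 10 genes each and glycine with 8.

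Of the tRNA genes of the Aurkb cluster on chromosome 11 (bases 69035961 to 69041920), 5 are shown with the B box letters GTTCGANNC in capitals, followed by the single sequence that 3 histidine tRNA genes of the Shf cluster on chromosome 2 share. All are from RefSeq's annotation of GRCm38, on the strand of the gene. The B box search was added after the values were seen. The proline and tryptophan genes do not hold these letters and are in lower case throughout. Both hold the similar letters gttcaaatc. Other forms of the B box were not searched, so a gene without these exact letters is not shown to lack one.
n-TSaga4, serine (chr11:69037477-69037558, plus): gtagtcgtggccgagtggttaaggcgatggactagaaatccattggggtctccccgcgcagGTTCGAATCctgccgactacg
n-TPcgg3, proline (chr11:69040385-69040456, plus): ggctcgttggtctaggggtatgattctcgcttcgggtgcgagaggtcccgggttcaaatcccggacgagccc
n-TDgtc9, aspartate (chr11:69040984-69041055, plus): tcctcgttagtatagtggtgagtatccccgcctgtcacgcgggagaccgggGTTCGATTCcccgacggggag
n-TGtcc6, glycine (chr11:69041278-69041349, minus): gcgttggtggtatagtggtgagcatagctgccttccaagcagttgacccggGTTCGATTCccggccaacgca
n-TWcca7, tryptophan (chr11:69041826-69041897, plus): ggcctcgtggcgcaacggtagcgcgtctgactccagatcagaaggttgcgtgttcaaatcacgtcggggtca
n-THgtg3, histidine (chr2:122377363-122377434, minus): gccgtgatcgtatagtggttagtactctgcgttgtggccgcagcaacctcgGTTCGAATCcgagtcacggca

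The Aurkb cluster, named for a mitotic kinase gene nearby, had 7 members, 6 of them over a tRNA gene. Of these, 5 are described. In replicate 1 the level was 0.953 (serine), 1.55 (proline), 1.78 (aspartate), 1.33 (glycine) and 2.16 (tryptophan). In replicate 2 the values were 1.41, 3.06, 4.21, 2.83 and 5.39 in the same order. The tryptophan gene was the highest and the serine gene the lowest in both libraries. The member without a tRNA gene, Aurkb.1, lay within the range of the others at 1.08 and 2.91.

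In the Shf cluster the 3 histidine genes share 1 sequence of 72 bases, yet their DHSs differed. Shf.2, over n-THgtg3, had 3.07 in replicate 1 and 7.85 in replicate 2, Shf.1 had 1.75 and 5.56, and Shf.3 had 1.18 and 2.21. Reads that fall inside identical genes cannot be placed by sequence, and how such reads were treated is not given in the sources used here. From 20.5% to 23.8% of the 30-base words of these DHSs occur more than once in the reference. In the Abt1-b cluster beside the histone genes of chromosome 13, 6 of 9 members lay over tRNA genes, and the tyrosine gene was highest, at 2.98 and 4.41.

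Across all clusters the 81 DHSs over tRNA genes had a median of 1.37 in replicate 1 (0.598 to 4.19) and 2.94 in replicate 2 (0.953 to 11.1). The 20 single DHSs over tRNA genes had 1.85 and 4.28, with ranges of 0.621 to 3.37 and 1.15 to 11.04 that overlap those of the clustered ones. The 55 other members of the same clusters had lower medians, 1.08 and 1.97. The exact letters GTTCGANNC, the only form of the B box searched, were in 61 of the 86 clustered genes, and in the central 150 bp of 28 of the 81 DHSs. They were in 0 of the 55 other members and in 19 of 7249 single DHSs (0.262%). Both libraries had a footprint in 95.1% of the 81. At least 4 such DHSs were found in each of 6 clusters, Abt1-b and Aurkb among them.

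Of 20780 autosomal protein-coding genes, 514 (2.47%) were nearest to at least 1 clustered DHS. The lists were fixed with earlier results of these data known, and genes with wide intergenic territory have more room for a cluster, which was not matched. Among glutamatergic neuron genes 4 of 12 had one (Neurod1, Neurod2, Nrn1 and Zbtb18), among activity-regulated genes 5 of 21 (Junb, Jun, Egr3, Dusp1 and Btg2), and among astrocyte genes 3 of 15 (Nfia, Nfix and Id3). The counts were 2 of 12 for upper layers (Pou3f3 and Mef2c), 2 of 13 for deep layers (Fezf2 and Tbr1), 3 of 19 for interneurons (Dlx5, Sp9 and Sox6) and 3 of 21 for endothelial and mural genes (Cdh5, Sox17 and Foxf2). Lower counts were found for axon guidance, 2 of 21 (Slit2 and Efna5), radial glia, 1 of 16 (Hes1), synapse, 1 of 19 (Syn2), and subcortical and hindbrain genes, 1 of 20 (Pax5). No gene had a cluster among 10 of oligodendrocyte precursors, 9 of myelin, 14 of microglia, 13 of meninges and choroid plexus and 20 of liver, muscle and blood. Lists of this size cannot tell a count of 0 from the background of 2.47%.

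**Figure D4:**
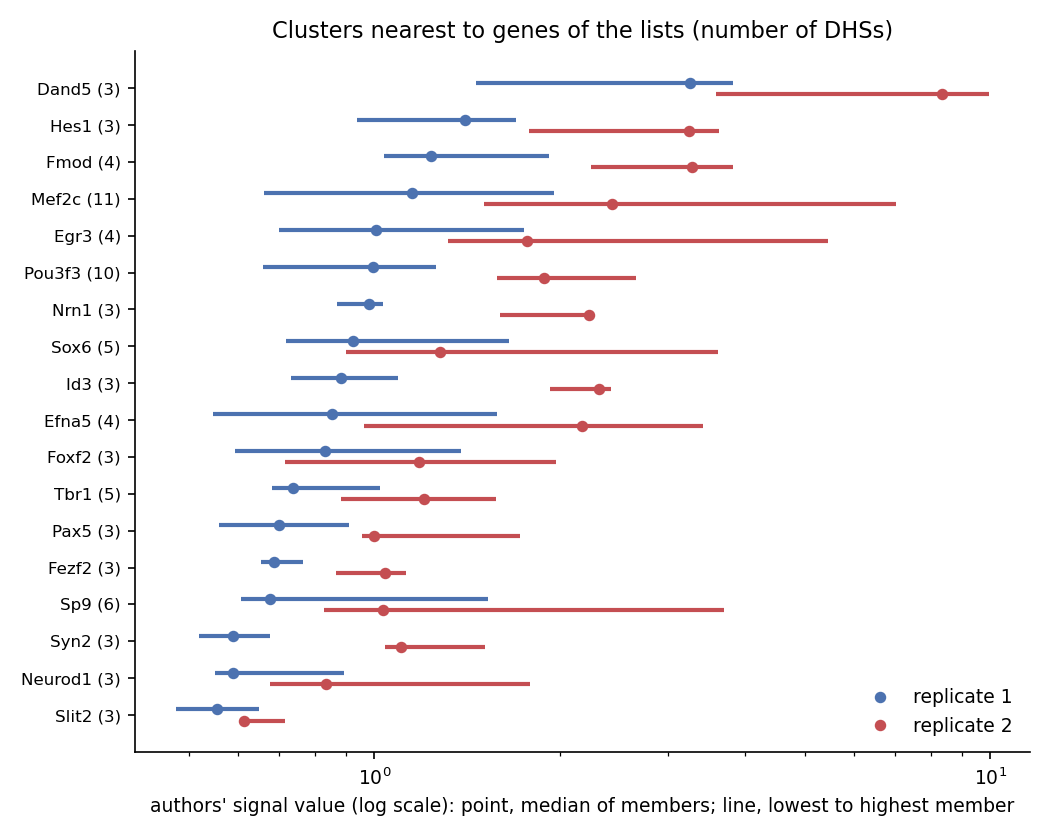
Signal values on a log scale of the members of 18 clusters whose nearest genes belong to the gene lists, with the number of DHSs in brackets; points are medians of members and lines run from the lowest to the highest member, in replicate 1 and replicate 2. Up to 2 clusters a list are plotted, and the low-value Cdh5 cluster, whose medians are below all of these, is left out. Of the 18 plotted clusters, Dand5 is highest (medians 3.26 and 8.33) and Slit2 lowest (0.556 and 0.614). Several have a long upper range in replicate 2, such as Sp9 and Sox6.

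The Mef2c cluster held 11 DHSs over 30380 bp on chromosome 13 (bases 83715061 to 83745440). Mef2c encodes a transcription factor of cortical neurons, and its TSS is 139514 to 169494 bp away. The span of the cluster overlaps the lncRNA gene C130071C03Rik and the gene of miR-9-2, a miRNA of neural progenitors and neurons. The strongest in replicate 2 were at the 2 ends, Mef2c.1 with 1.96 in replicate 1 and 7.03 in replicate 2 and Mef2c.11 with 1.76 and 6.37. Mef2c.4, with 1.77 and 3.63, was level with Mef2c.11 in replicate 1 but below it in replicate 2, and Mef2c.2, 250 bp from the lncRNA's TSS, had 1.67 and 3.95. The other 7 members ran from 0.663 to 1.25 in replicate 1 and from 1.51 to 2.90 in replicate 2. All members lie outside protein-coding genes, and 9 had a footprint in both libraries.

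The Pou3f3 cluster held 10 DHSs over 20163 bp on chromosome 1 (bases 42684358 to 42704520). Pou3f3 encodes a POU-domain factor of upper-layer neurons, and the span of the cluster overlaps the lncRNA gene Pantr1. Its members were even in strength, from 0.659 to 1.26 in replicate 1 and from 1.58 to 2.66 in replicate 2. The strongest member was Pou3f3.4 in replicate 1 (1.26, and 2.43 in replicate 2) and Pou3f3.5 in replicate 2 (2.66, and 1.16 in replicate 1). Pou3f3.8 and Pou3f3.9 lie in exons. In 7 of 10 members both libraries had a footprint. The plot of members along 5 clusters shows the even Pou3f3 cluster beside the uneven Mef2c one.

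**Figure D5:**
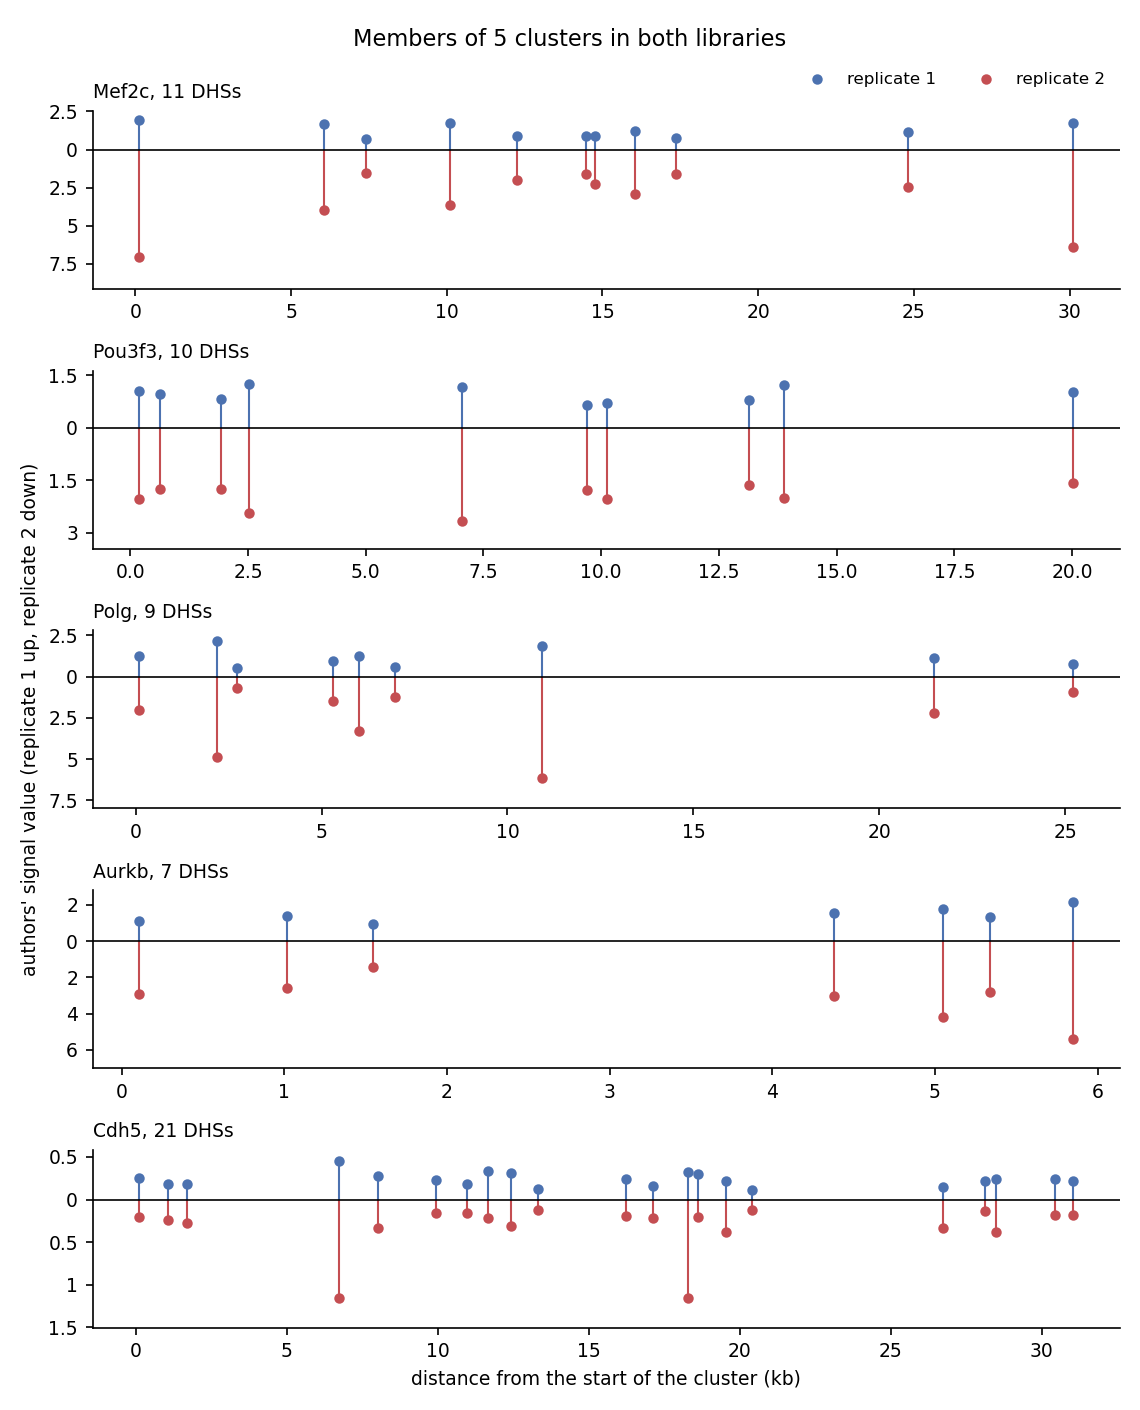
Signal value of each member at its distance from the start of the cluster in kb, with replicate 1 upwards and replicate 2 downwards and a separate scale for each cluster. Mef2c is highest at both ends in replicate 2 (7.03 and 6.37), Pou3f3 is even, Polg and Aurkb have 1 or 2 high members, and the 21 members of Cdh5 are at or below 0.448 in replicate 1.

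Further miRNA genes lay in clusters. The Polg cluster, named for the mitochondrial polymerase gene 27719 to 52830 bp away, held 9 DHSs in a span that overlaps Mir9-3hg, the host gene of miR-9-3. Its strongest members were Polg.2, with 2.16 in replicate 1 and 4.86 in replicate 2, and Polg.7, with 1.88 and 6.14, which lies 243 bp from the miR-9-3 hairpin. The Ythdf1 cluster held 6 DHSs at Mir124a-3, the gene of a neuronal miRNA, led by Ythdf1.6 in replicate 1 (1.75, and 5.62 in replicate 2) and Ythdf1.3 in replicate 2 (7.41, and 1.64 in replicate 1). The Dpyd cluster held 4 DHSs, and the fourth, with 0.803 and 1.32, overlapped the hairpin of miR-137, which acts in neuronal maturation. The Spaca6 cluster held 4 DHSs at the genes of miR-99b, let-7e and miR-125a, with 0.649, 1.88, 1.03 and 2.05 in replicate 1 and 1.197, 4.33, 2.10 and 5.65 in replicate 2.

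The mature miRNAs of these loci are shown to identify them, from RefSeq's GRCm38 annotation, with the seed (bases 2 to 8) in capitals. No 2 of the 5 share a seed, while the genes of miR-9-2 and miR-9-3 give the same mature sequence. The clusters were chosen after their values were seen.
miR-9-5p: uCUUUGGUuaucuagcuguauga
miR-137-3p: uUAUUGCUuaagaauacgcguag
miR-99b-5p: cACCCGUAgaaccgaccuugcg
let-7e-5p: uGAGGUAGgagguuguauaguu
miR-125a-5p: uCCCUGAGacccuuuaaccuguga

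Among genes of glutamatergic neurons, the Tbr1 cluster held 5 DHSs within 9642 bp of the TSS of Tbr1, a T-box factor of deep layers. Their values ran from 0.682 to 1.02 in replicate 1 and from 0.882 to 1.58 in replicate 2. The strongest in replicate 1, Tbr1.3, is a DHS of 1320 bp in an exon. The Fezf2 cluster, at the gene of a zinc-finger factor of subcortical projection neurons, held 3 wide DHSs with 0.654, 0.687 and 0.766 in replicate 1 and 1.13, 1.04 and 0.867 in replicate 2. The order of the Fezf2 members was opposite in the libraries. The Neurod1 cluster, at a neurogenic basic helix-loop-helix factor, had 0.892, 0.588 and 0.551 in replicate 1 and 1.79, 0.678 and 0.835 in replicate 2. Its first and strongest member lies 2465 bp from the Neurod1 TSS but 301 bp from that of Gm26755. In the Zbtb18 cluster, at a repressor of neuronal development, Zbtb18.1 had 2.08 and 10.4 and stood above the other members, which had 0.887 and 0.696 in replicate 1 and 1.12 and 1.02 in replicate 2.

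The Nrn1 cluster, at the gene of the growth-promoting protein neuritin, held 3 DHSs of similar strength, with 0.981, 0.869 and 1.03 in replicate 1 and 2.24, 1.60 and 2.23 in replicate 2. The cluster with Neurod2 as a nearest gene lay between Neurod2 and Ppp1r1b, which encodes a dopamine signalling protein. Its middle member, Ppp1r1b.2, had 3.88 and 8.86. The members beside it had 1.39 and 1.71 in replicate 1 and 3.27 and 3.07 in replicate 2.

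Interneuron factors had clusters inside or next to their genes. The Sp9 cluster, at a zinc-finger factor of migrating interneurons, held 6 DHSs, 5 of them from 0.607 to 0.775 in replicate 1 and from 0.827 to 1.21 in replicate 2. Sp9.6, in an intron, stood above them at 1.53 and 3.70. The Sox6 cluster, at an SRY-box factor of interneurons from the medial ganglionic eminence, held 5 intronic DHSs. The highest was Sox6.5 with 1.65 and 3.62, and the others ran from 0.719 to 1.13 and from 0.898 to 1.57. In both clusters the last member was the strongest in both libraries. The Dlx5 cluster held 4 DHSs, with 0.439, 0.635, 0.383 and 1.12 in replicate 1 and 0.859, 0.827, 0.772 and 2.21 in replicate 2.

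The Dand5 cluster had the highest mean rank of cluster medians of all 439, with 3.26, 1.46 and 3.82 in replicate 1 and 9.96, 3.58 and 8.33 in replicate 2. Its first member is nearest to Nfix, a nuclear factor I gene used by progenitors and astrocytes, 10707 bp away. The Nfia cluster held 3 intronic DHSs with 1.28, 1.43 and 0.985 in replicate 1 and 2.20, 2.54 and 1.58 in replicate 2. The Id3 cluster, at an inhibitor of differentiation, had 1.09, 0.733 and 0.883 in replicate 1 and 2.43, 2.32 and 1.93 in replicate 2. The Hes1 cluster, at a target of Notch signalling in progenitors, had 0.939, 1.40 and 1.70 in replicate 1 and 1.78, 3.25 and 3.63 in replicate 2, with the same order of members in both.

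Activity-regulated genes respond to synaptic input within minutes to hours. The Egr3 cluster held 4 DHSs, and Egr3.2, 2122 bp from the TSS, was highest with 1.75 in replicate 1 and 5.46 in replicate 2. The other members ran from 0.701 to 1.05 and from 1.32 to 1.80. The Junb cluster held 4 DHSs from 1.36 to 1.99 in replicate 1 and from 3.71 to 5.81 in replicate 2. The highest in both libraries was Junb.3, which like Junb.4 is nearest to Hook2. The Jun cluster had 0.775, 0.920 and 1.48 in replicate 1 and 2.00, 2.13 and 3.99 in replicate 2. The cluster near Btg2, an antiproliferative gene, is named for its neighbour Fmod and had members from 1.04 to 1.92 and from 2.25 to 3.82. The Dusp1 cluster, whose members Dusp1.2 and Dusp1.3 lie 45621 and 41621 bp from the TSS of this phosphatase gene and whose Dusp1.1 is nearest to Neurl1b, ran from 0.897 to 1.29 and from 1.35 to 2.65.

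The Slit2 cluster, at the gene of a repellent of growing axons, had the lowest medians of the 18 plotted clusters, with 0.556, 0.476 and 0.649 in replicate 1 and 0.614, 0.607 and 0.717 in replicate 2. The Efna5 cluster, at an ephrin gene, had 0.546, 1.12, 0.593 and 1.58 in replicate 1 and 1.09, 3.25, 0.961 and 3.42 in replicate 2, with strong and weak members alternating. The Syn2 cluster, near a synaptic vesicle protein gene, had 0.588, 0.677 and 0.518 and then 1.51, 1.04 and 1.10. The Pax5 cluster, at a midbrain patterning and B cell factor, had 0.701, 0.911 and 0.560 and then 0.953, 1.73 and 1.00. The Foxf2 cluster, at a pericyte factor, had 1.38, 0.593 and 0.831 and then 1.97, 0.717 and 1.18. Its first and strongest member lies 7125 bp from the Foxf2 TSS but 477 bp from that of Gm11378. The Sox17 cluster, at an endothelial SRY-box gene, held 3 exonic DHSs with medians of 0.574 and 1.02.

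The clusters with the highest mean rank of cluster medians, after Dand5, included Cirbp, Zfp692, Ptma, Zbtb20, A830005F24Rik, Gm31371, Klrb1c-a and Nr1d1. The Cirbp cluster, near the gene of a cold-inducible RNA-binding protein, had 2.04, 2.52 and 2.51 in replicate 1 and 10.8, 12.6 and 7.53 in replicate 2, and its ratio of 5.00 was the largest of all clusters. The Zbtb20 cluster, inside the locus of a repressor of hippocampal and cortical neurons, had 2.66, 2.49 and 0.887 in replicate 1 and 9.74, 9.86 and 1.58 in replicate 2. Its first members lie within 426 bp of the TSS of a lncRNA, 4932412D23Rik. The Nr1d1 cluster, at a circadian repressor gene, had medians of 1.90 and 6.42. The Zfp692 cluster holds tRNA genes for glutamate and leucine, with 3.54 and 3.52 in replicate 1 and 6.78 and 6.83 in replicate 2.

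Low-value clusters were many weak calls close together. Their members had a median signal value of 0.238 in replicate 1 (quartiles 0.192 and 0.280) and 0.260 in replicate 2 (0.197 and 0.386). The median width was 360 bp, and introns held 56.4% of the members. Members filled a median of 29.5% of the span, against 13.4% in clusters outside the tRNA and low-value kinds. CTCF matches in the central 150 bp were found in 3 of 202 members (1.49%).

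The Cdh5 cluster, 11821 to 42737 bp from the TSS of the vascular cadherin gene, held 21 intergenic DHSs over 31226 bp. Its members ran from 0.117 to 0.448 in replicate 1 and from 0.126 to 1.16 in replicate 2. Cdh5.4 (0.448 and 1.16) and Cdh5.13 (0.327 and 1.15) were the highest in replicate 2, and the next member there had 0.386. In 6 of 21 members both libraries had a footprint. Promoters of the fixed endothelial markers, Cdh5 among them, had no shared DHS. The Vstm2l cluster, with 16 DHSs in introns of the neighbouring gene Ctnnbl1, had medians of 0.229 and 0.221, and the B4galt5 cluster, with 15 DHSs that fill 72.2% of 11100 bp, had 0.266 and 0.291. The Trappc9 cluster held 12 intronic DHSs on both sides of the TSS of the lncRNA Peg13, a paternally expressed gene in brain. The highest member there had 1.25 and 3.66 and the median over members was 0.231 and 0.224.

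The 22 DHSs of the Emc10 cluster, the most of any cluster, lay just above the low-value limit, with medians of 0.364 and 0.579 and ranges of 0.154 to 1.39 and 0.181 to 2.34. They spread over 4 protein-coding genes, Lrrc4b, Aspdh, Josd2 and Emc10, and both libraries had a footprint in 11 of them. Without the low-value clusters, 409 clusters with 1500 DHSs would remain, 13.1% of distal shared DHSs.

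Some clusters lay in sequence that the genome holds more than once. In 56 clustered DHSs (3.29%), at least 50% of the 30-base words occurred more than once in the reference, against 106 single DHSs (1.46%). In 14 clusters at least 50% of the members were of this kind, 5 of them on chromosome 8. They included Pramef17, whose words had a median of 876.5 copies, Rhou, at the 5S ribosomal RNA genes, with 47.5 copies, and Akap1 with 23 copies. Their ratios of replicate 2 to replicate 1 ran from 0.830 to 2.37, with a median of 1.43, against 1.88 over all clusters. How reads with several positions were handled is not given in the sources used here, and its part in these values was not tested. In the Gm31371 cluster, members had from 0.528 to 6.94 in replicate 1 and from 0.559 to 22.1 in replicate 2, with a median of 4 copies.

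The Sfi1 cluster, at the gene of a centrin-binding protein on chromosome 11, held 15 DHSs over 58340 bp, the longest span. Its members were strong in replicate 1, from 1.40 to 7.72 with a median of 2.06, and ran from 1.13 to 11.04 with a median of 2.05 in replicate 2. The ratio of 0.941 differs from the 1.91 of the clusters outside the tRNA and low-value kinds. In 3 of 15 members at least 50% of the words occurred more than once. In the other members the share of such words ran from 0 to 0.497. The latter was in Sfi1.3, the strongest member in both libraries. All 15 had a footprint in both libraries. Within clusters, 8 members in 5 clusters shared at least 20% of their 30-base words with another member, and the other members shared less.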

How the data were processed

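DNase-seq of left cerebral cortex was deposited for 2 libraries, which the labels give different biological replicate numbers. Values of the libraries were set side by side, and nothing was averaged or tested. Per the file headers, the authors called peaks for each library in mm10, as a stricter and a lenient list (92872 and 81087 lenient calls), with a signal value whose scaling is not stated, so that depth is unknown. Per the file headers, the authors also deposited runs of bases with a false discovery rate (FDR, a q-value) under 0.05, and footprints (153911 and 224652) that carry the p-value threshold 0.01 on every line. Neither aligner, caller nor treatment of reads with several positions is given in the sources used here.

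Calls of the stricter lists that overlapped by at least 1 bp were merged, and a union with calls of both libraries was a shared DHS: 26012 in all, 25283 on autosomes, of which 13832 were promoter and 11451 distal (centre more than 1 kb from a protein-coding TSS of GENCODE M21). The level of a DHS is the signal value of its strongest call in each library. Exact 95% binomial intervals cover counting error only. Those on DHSs treat them as independent, which members of 1 cluster are not. Motifs were sought on both strands of the central 150 bp. Repeats were counted as 30-base words found more than once in the reference. Genes of tRNA, miRNA and lncRNA came from RefSeq's annotation of GRCm38.

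Clusters named were the 10 with the most DHSs, the 10 with the highest mean rank of median signal value, those nearest to genes of fixed lists (up to 2 a list) and a few loci fixed by name. Clusters at other listed genes, at miRNA and tRNA genes, with repeats or with the widest range of values were named after their values were seen. Members and lists were chosen with earlier results of these data known. Alternatives were another linking distance, size, promoter window, overlap, call list, TSS set or FDR limit, each library alone, and, added after seeing the data, leaving out kinds of cluster, joining close DHSs and matching widths. Scripts in Python 3.11.15 with NumPy 2.4.6, pandas 2.3.3, SciPy 1.17.1 and Matplotlib 3.10.9 were tested on simulated data. A few named genes and sequences are not reported here.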

Additional observations from a re-analysis of the deposited data

How the results depend on the processing

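Of 131 alternative values computed, 65 stayed within the limits set for the result, 65 moved and 1 reversed. These limits differed in kind, so the counts do not measure stability. For signal ratios the limit was the standard deviation of the 2 libraries' near-equal ratios, and every alternative counted as moved. For GC and CTCF it was the standard deviation of the values on each library alone, which lay far apart. Shares of bases under an FDR limit were counted as moved by rule. The number of clusters, 439, was 280 with a linking distance of 5 kb, 677 with 25 kb, 67 for clusters of 5 or more DHSs, 1459 on the lenient lists and 1670 to 2675 without replicate 1 or 2. The share of distal shared DHSs in clusters, 14.9%, was in the same order 9.53%, 23.1%, 4.34%, 23.0% and 29.9% to 72.4%. It was 13.24% with a promoter window of 2.5 kb, 13.23% with the TSSs of every gene type, 13.2% without calls of replicate 1 under 0.3, 13.1% without low-value clusters, 13.7% without tRNA clusters, 11.9% without both kinds and 11.6% with DHSs within 200 bp joined.

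The ratio of signal values, clustered to single, was 1.007 in replicate 1 and 1.009 in replicate 2. It was 0.894 and 0.834 at 5 kb, 1.11 and 1.16 at 25 kb, 0.729 and 0.661 for 5 or more DHSs, 1.02 and 1.05 where calls had to overlap by 50% of the shorter one, and 1.22 and 1.29 on the lenient lists. It was 1.015 and 1.011 with the 2.5 kb window, 0.990 and 0.987 with every gene type, 1.09 and 1.13 without calls under 0.3, and 1.005 and 1.004 without clusters of shared sequence. It was 1.09 and 1.13 without low-value clusters, 0.980 and 0.969 without tRNA clusters, 1.06 and 1.10 without both, 1.005 and 1.022 without multicopy clusters and 1.06 and 1.08 with close DHSs joined. On its own calls it was 0.191 for replicate 1 (without replicate 2) and 1.007 for replicate 2 (without replicate 1).

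The share of clustered DHSs with a footprint in both libraries, 81.8%, was 75.7% at 5 kb, 86.3% at 25 kb, 69.6% for 5 or more DHSs, 78.5% on the lenient lists, 87.9% without calls under 0.3, 87.3% without low-value clusters, 86.95% without low-value and tRNA clusters, 86.98% with close DHSs joined and 10.2% to 48.5% without a replicate. The GC difference, 2.67 percentage points, was above 0 in 15 of 16 settings and 3.33 to -3.33 without replicate 1 or 2. The CTCF ratio, 0.422, was 0.0997 for 5 or more DHSs and 0.0702 to 0.490 without replicate 2 or 1, and stayed below 1 in 19 of 19 settings. Bases in gaps with an FDR under 0.001 were 5.01% and 4.54%, against 12.1% and 11.1% under 0.05. Members that share sequence numbered 17 at a limit of 10% of words and 2 at 50%, against 8 at 20%. The cause of these shifts was not tested. No paired analysis was possible because there is 1 group and the results come from no test. With 2 libraries and a signal value of unstated scaling, no error between animals could be given.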
